A study of Rattus norvegicus with 18 samples.

Results

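The bladder of the rat was examined through 140 genes whose RNA was far more abundant in mucosa than in detrusor of uninjured animals, out of 32754 genes listed by the deposited count table. They were selected on measured values, as genes with a mean above 50 CPM (the count of a gene scaled to a common library total) in control mucosa and a ratio of mean mucosa to mean detrusor CPM above 16, with 0.5 added to both means. In all, 143 genes met both thresholds and 3 of them were left out beforehand and are not analysed here. The libraries came from wild-type male Sprague Dawley rats, 3 groups of which were compared. Control rats had no injury and are labelled as untreated. SCI-vehicle rats had the spinal cord completely transected at a thoracic level at 6 to 7 weeks of age and then received 12 mM sodium bicarbonate buffer by daily intraperitoneal injection for 8 weeks. SCI-inosine rats had the same injury and were given the purine nucleoside inosine by the same route for 8 weeks, at a daily dose of 225 mg/kg. No group had the injury without injections, and Control had neither, so injury and injection cannot be told apart in the comparisons with Control. Each bladder was microdissected into detrusor, the smooth muscle layer, and mucosa, and each of the 6 combinations of tissue and group gave 3 libraries of total RNA. The labels do not say whether the detrusor and mucosa libraries with the same number came from the same rat, nor whether a library is 1 animal, so the p-values describe the spread between these samples.

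The bladder mucosa consists of the urothelium, a stratified epithelium that seals the wall against urine, and the lamina propria beneath it, a connective tissue with fibroblasts, vessels, nerve fibers and immune cells. The detrusor is the smooth muscle that contracts to empty the bladder. Genes used in the epithelium or the lamina propria are therefore read mostly in mucosa libraries, and their level in a detrusor library depends both on expression in the muscle layer and on mucosa that stays attached to it. In bulk tissue, fewer cells of a type and less RNA per cell cannot be told apart.

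The count table lists genes by Ensembl rat identifier and does not pair the identifiers with gene names, so the roles of the 140 genes, and markers of urothelium, lamina propria or muscle among them, were not analysed here. The genes are described by level, and 4 are given by identifier. All 18 libraries carry the same batch label, and their total counts ranged from 3255012 to 6810496. One detrusor library, SCI-inosine replicate 2, had counts on 14126 genes, against 16475 to 17842 in the other 8 detrusor libraries.

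Within control mucosa the 140 genes covered a wide range of levels. Mean CPM ran from 50.1 to 1199 with a median of 111, and 8 genes exceeded 500 CPM. The 10 most abundant genes held 26.6% of all counts on the 140. In control detrusor the same genes had a median of 2.38 CPM, with a range from 0.224 to 50.9, and none was at 0 in all 3 libraries. The ratio of mucosa to detrusor had a median of 44.1, and the highest was 228. It exceeded 32 for 88 genes and 64 for 39 genes. The thresholds cut through a continuous range of values: the 3 genes just inside the ratio limit had ratios of 16.2, 16.2 and 16.6, and the 3 just outside had 15.9, 15.6 and 15.4. The 3 genes just above the level limit had 50.1, 50.5 and 51.0 CPM, against 49.7, 49.5 and 49.1 CPM just below it. These values chose the genes and are given as a description. Counts behind the detrusor values were small, with 37, 23 and 17 of the 140 genes at 3 reads or fewer in the 3 control detrusor libraries, whereas every gene had more than 3 reads in all 9 mucosa libraries.

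The most abundant of the 140 genes had 870.3, 1499 and 1229 CPM in the control mucosa libraries and 41.9, 57.3 and 53.6 CPM in control detrusor. In mucosa of SCI-vehicle it had 1029, 970.6 and 1479 CPM, and in mucosa of SCI-inosine 749.7, 1212 and 1306 CPM. In detrusor of SCI-vehicle it read 155, 40.5 and 44.0 CPM, and in detrusor of SCI-inosine 51.0, 69.5 and 56.0 CPM. Only SCI-vehicle replicate 1 stood far from the other detrusor libraries for this gene, and the 3 groups overlapped in mucosa. The second most abundant gene was nearly silent in control detrusor, at 1.68, 4.06 and 10.7 CPM, against 873.5, 626.7 and 921 CPM in control mucosa. Its detrusor level was 239.8, 13.1 and 8.06 CPM in SCI-vehicle and 21.3, 62.8 and 37.0 CPM in SCI-inosine. For this gene all 3 SCI-inosine detrusor libraries lay above the 3 controls, while SCI-vehicle replicate 3 lay within the control range.

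To compare detrusor libraries across the whole group of genes, the share of each library's counts that fell on the 140 genes was taken. In control detrusor the share was 0.0444%, 0.0571% and 0.0758%. In SCI-vehicle it was 0.717% in replicate 1 and 0.0982% and 0.0845% in replicates 2 and 3. In SCI-inosine it was 0.118%, 0.251% and 0.173%. All 6 libraries from injured rats were above all 3 controls, and the SCI-vehicle libraries lay on both sides of the SCI-inosine libraries. The exact (Clopper-Pearson) 95% confidence interval of the lowest share ran from 0.0426% to 0.0462% and that of the highest detrusor share from 0.710% to 0.725%. These intervals cover counting error only and are far narrower than the spread within a group. The group means were 0.0591% ± 0.0158 for Control, 0.300% ± 0.361 for SCI-vehicle and 0.180% ± 0.0666 for SCI-inosine (SD over 3 libraries, n = 3), and without replicate 1 the SCI-vehicle mean was 0.0913%.

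**Figure D1:**
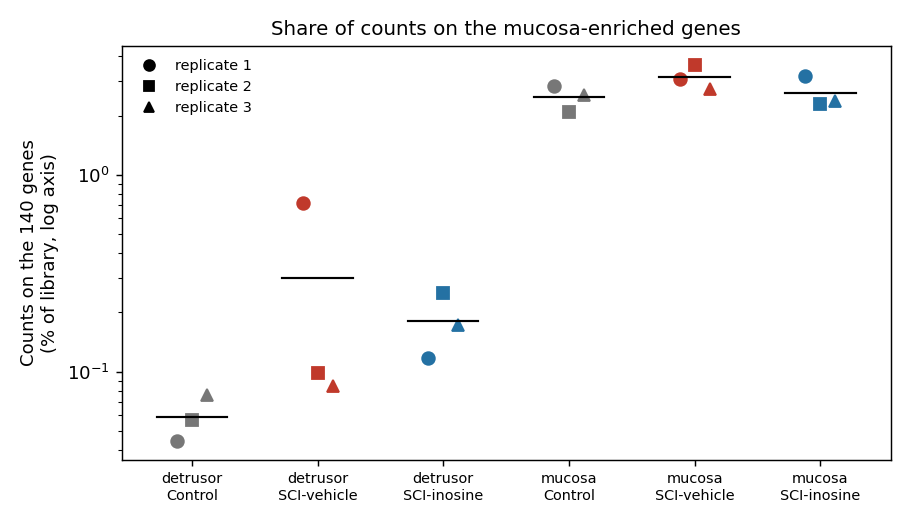
Share of all counts that fell on the 140 mucosa-enriched genes (percent of the library, log axis) in each of 18 libraries, by tissue and group, with the mean of 3 libraries as a line. In detrusor, SCI-vehicle replicate 1 stands at 0.717%, above the next library at 0.251%, and the 9 mucosa libraries lie between 2.08% and 3.62%.

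A second measure set each gene on its own scale, from 0 at its control detrusor mean to 100 at its control mucosa mean. On this scale the median gene stood at 32.4 in detrusor SCI-vehicle replicate 1, and the 5th to 95th percentiles of the genes there were 5.80 and 50.8. In SCI-vehicle replicates 2 and 3 the median gene stood at 1.46 and 0.971. The SCI-inosine medians were 2.04, 8.31 and 4.80. Detrusor SCI-vehicle replicate 1 held the highest level of the 9 detrusor libraries for 131 of the 140 genes, and its level was 9.52 times the mean of replicates 2 and 3 at the median gene, against 1.11 times at the median of all 15740 genes tested. Among the other 8 detrusor libraries, SCI-inosine replicate 2 was highest for 98 genes and replicate 3 for 25. The order of replicates 2, 3 and 1 from high to low held in SCI-inosine for 91 genes. The genes thus differed between libraries of the same group largely as a block.

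Other genes moved with these libraries. A separate list of 368 genes, between 4 and 16 times higher in control mucosa and above 50 CPM there, was placed on the same scale between the tissues. Their median stood at 17.9 in detrusor SCI-vehicle replicate 1 and at 2.60 and 1.79 in replicates 2 and 3. It was 4.50, 11.2 and 10.6 in SCI-inosine and between -2.05 and 1.13 in Control. By a mirrored rule, 30 genes were strongly higher in control detrusor than in control mucosa. On a scale with 100 at the control detrusor mean, these 30 genes had medians of 60.3, 68.9 and 76.1 in detrusor of SCI-vehicle. In SCI-inosine they had 75.2, 66.2 and 75.4, and the lowest median was that of SCI-vehicle replicate 1. Their share of counts did not follow this order. It was 3.69% in SCI-vehicle replicate 1, lowest in SCI-inosine replicate 3 at 3.46%, and 3.77% to 4.52% in Control. Both lists were chosen on the control libraries, so their shifts from Control in libraries of injured rats are partly set by the choice. The part that mucosal tissue in the detrusor libraries has in the results below was not tested.

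The first detrusor comparison asked how the genes differed after injury with vehicle. At the median gene, SCI-vehicle was higher than Control by 2.34 on the log2 scale, against 0.01 over all genes tested, and 138 of the 140 estimates were positive. With SCI-vehicle replicate 1 left out, the median was 0.78 and 122 estimates were positive. The libraries of Control also chose the genes, so these differences are partly set by the choice. With Benjamini-Hochberg adjustment over all genes tested, edgeR's quasi-likelihood test on the 9 detrusor libraries gave 0 of the 140 genes an adjusted p under 0.05, where 0.0762% of all genes had one, and the smallest among the 140 was 0.174. Without adjustment, 111 were higher and 0 lower at a p under 0.05, where 7.55% of all genes were higher and 5.42% lower. Without SCI-vehicle replicate 1, 27 were higher at an unadjusted p under 0.05, against 5.59% of all genes. DESeq2 called 36 of the 140 genes higher at an adjusted p under 0.05, against 2.54% of the genes it gave an adjusted p, and gave none to 21 of the 140. Without a filter on low counts, edgeR called 30 of the 140, against 0.807% of all genes. Every SCI-vehicle library was above every Control library for 56 genes (40.0%), where this held for 11.7% of all genes. The standard error of these fold changes was 0.90 at the median gene, and 0.60 without SCI-vehicle replicate 1.

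In detrusor of SCI-inosine, the median gene was higher than in Control by 1.68 on the log2 scale, and 136 of the 140 estimates were positive, again against libraries that chose the genes. In edgeR's test none of the 140 had an adjusted p under 0.05, where 0.292% of all genes had, and DESeq2 called 2, against 2.63% of the genes it tested. With no filter on low counts edgeR also called 2, against 0.802% of all genes. Before adjustment, 62 genes were higher and 0 lower at a p under 0.05, against 7.78% and 5.85% of all genes. No overlap between SCI-inosine and Control, with SCI-inosine above, was found for 103 genes (73.6%), against 12.6% of all genes. SCI-vehicle replicate 1 entered this comparison only through the spread shared by the 9 libraries. Without it, 108 genes were higher at an unadjusted p under 0.05, against 8.25% of all genes, and 5 had an adjusted p under 0.05 (between 0.0271 and 0.0469, edgeR), against 0.356% of all genes. These 5 rose by 2.55 to 2.96 on the log2 scale. The unadjusted count also moved with other libraries. With Control replicate 1 left out it was 11, against 4.5% of all genes, and with Control replicate 2 left out 13, against 4.97%. Leaving out SCI-inosine replicate 2 gave 9, against 5.37% of all genes, and leaving out its replicate 3 gave 40, against 6.21%.

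The comparison of the injured groups contrasted no library that chose the genes. Control libraries, which chose them, entered its tests only through the scaling and the spread shared by the detrusor libraries. In detrusor, SCI-inosine was lower than SCI-vehicle at the median gene, with a log2 difference of -0.85 and 129 of the 140 estimates negative. Without SCI-vehicle replicate 1 the direction turned, to a median of 0.96 with 127 estimates positive. The edgeR test gave 0 of the 140 genes an adjusted p under 0.05, and 0% of all genes, and DESeq2 also called 0 of the 140. At an unadjusted p under 0.05, 1 gene was higher and 2 were lower, where 2.67% and 1.71% of all genes were. Without SCI-vehicle replicate 1, 50 genes were higher at an unadjusted p under 0.05, against 2.97% of all genes, and 0 were lower. With replicate 2 or 3 left out instead, so that replicate 1 was 1 of 2 SCI-vehicle libraries, 23 and 33 genes were lower, against 1.59% and 1.89% of all genes. Whether the genes were higher or lower in detrusor with inosine was thus set by 1 library.

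**Figure D2:**
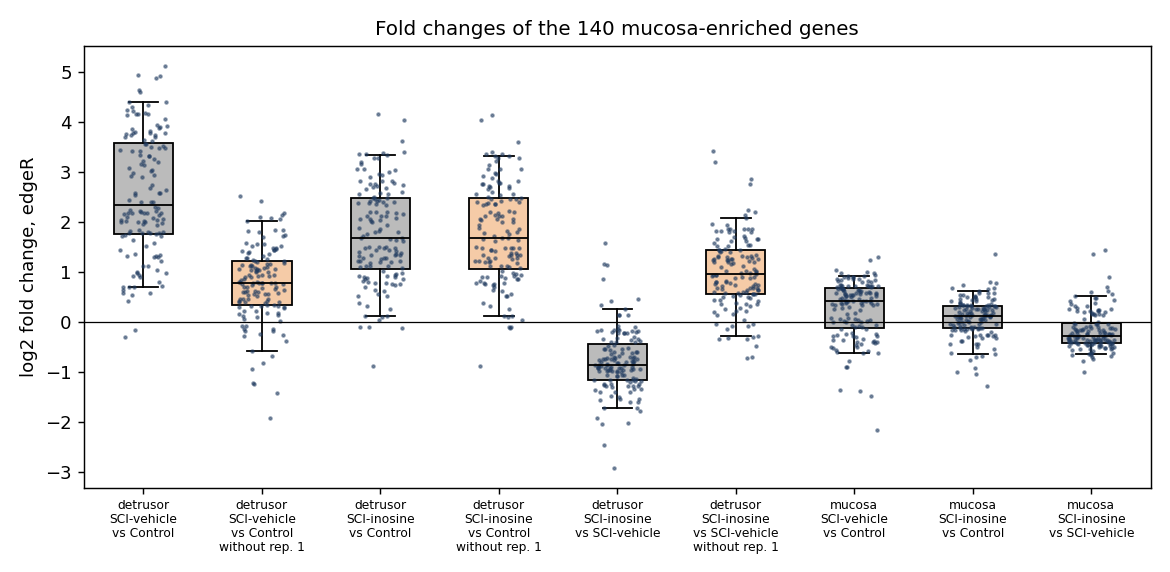
Log2 fold changes of the 140 genes in the 6 comparisons within a tissue, estimated by edgeR. Boxes give the median and quartiles, whiskers the 5th and 95th percentiles, points single genes, and orange boxes the fits without detrusor SCI-vehicle replicate 1, in which the median of SCI-inosine against SCI-vehicle goes from -0.85 to 0.96.

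A further fit took as a covariate the median position of the 368 genes in each detrusor library, called the mucosa share here. The same control libraries chose the 368 and the 140 genes, so the covariate is not independent of the choice. Expression in the muscle layer would raise it as attached mucosa would, and which of these it reflects was not tested. This fit gave smaller differences in all 3 detrusor comparisons. The median log2 difference was 0.42 for SCI-vehicle against Control, 0.14 for SCI-inosine against Control and -0.34 for SCI-inosine against SCI-vehicle. The higher and lower counts at an unadjusted p under 0.05 were then 16 and 1 for SCI-vehicle against Control, where 4.2% and 3.06% of all genes were called, and 5 and 3 for SCI-inosine against Control, where 3.45% and 2.44% were. For SCI-inosine against SCI-vehicle they were 0 and 15, where 2.45% and 1.66% of all genes were called. None of the 140 genes had an adjusted p under 0.05 in this fit of edgeR.

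In mucosa, the share of counts on the 140 genes was 2.84%, 2.08% and 2.55% in Control, 3.07%, 3.62% and 2.73% in SCI-vehicle and 3.17%, 2.29% and 2.36% in SCI-inosine. SCI-vehicle replicates 1 and 2 and SCI-inosine replicate 1 were above all 3 controls. SCI-vehicle replicate 3 and the other SCI-inosine libraries lay within the control range. The means were 2.49% ± 0.384, 3.14% ± 0.450 and 2.61% ± 0.492 (SD, n = 3 libraries each), so the groups differed by about as much as the libraries within them.

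Beneath these totals, the genes followed 2 patterns among the mucosa libraries. They were divided, after their values were seen, by whether control mucosa replicate 1 exceeded replicate 2. The first class, higher in replicate 1, held 104 genes and the second 36, and 10 genes lay within 0.25 log2 units of the division. In control mucosa the first class had medians of 129.8, 67.4 and 102 on the scale between the tissues, and the second class had 70.4, 122 and 112. Only replicate 3 of these was not used for the division. The coefficient of variation between the 3 control mucosa libraries was 30.9% at the median of the 140 genes, against 10.1% at the median of all tested genes above 50 CPM.

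Libraries from injured rats, which were not used to form the classes, divided the genes in the same way. In SCI-vehicle mucosa the first class stood at 159.8, 186 and 119.5 and the second at 74.9, 69.5 and 96.3. In SCI-inosine mucosa the first class stood at 159, 88.5 and 94.5 and the second at 50.8, 104 and 107. SCI-inosine replicate 1 was above replicate 3 for 103 of 104 genes of the first class and for 2 of 36 of the second. SCI-vehicle replicate 2 was above replicate 3 for 100 of 104 and for 3 of 36. In each of these libraries the classes deviated in opposite directions, and the shift differed between libraries of the same group as well as between groups.

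**Figure D3:**
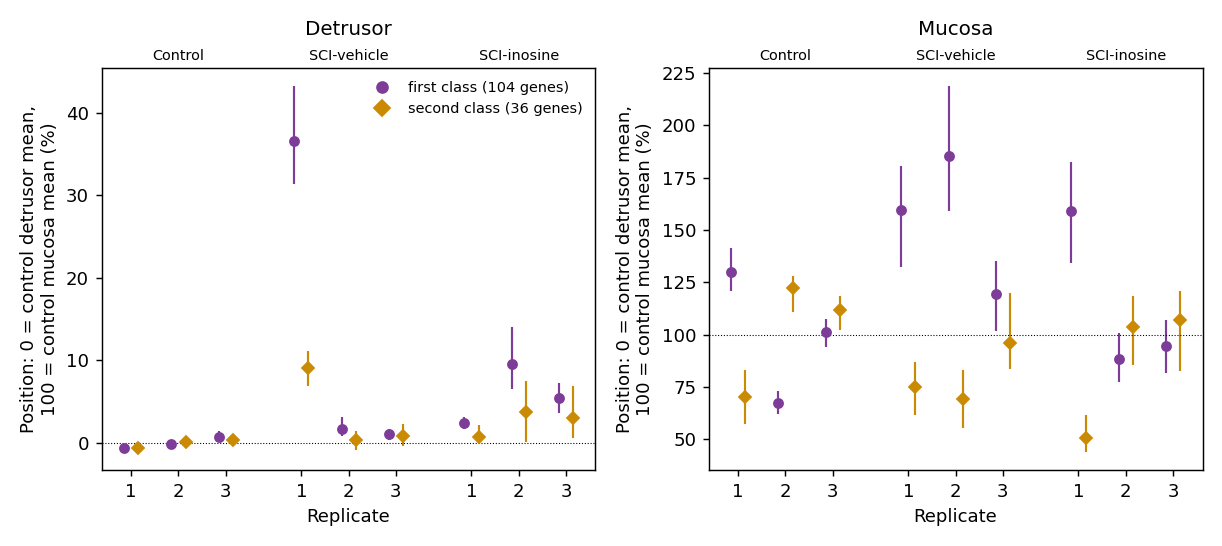
Median level of the first class (104 genes, circles) and the second class (36 genes, diamonds) in each library of detrusor and mucosa, on a scale with 0 at the control detrusor mean and 100 at the control mucosa mean of each gene. Vertical lines span the quartiles. In mucosa the classes lie on opposite sides in SCI-vehicle replicates 1 and 2 and SCI-inosine replicate 1, and in detrusor SCI-vehicle replicate 1 the first class stands at 36.5 and the second at 9.11.

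In detrusor the classes differed in size, and not in opposite directions as in mucosa. In SCI-vehicle replicate 1 the first class stood at 36.5 and the second at 9.11, and the level relative to the mean of replicates 2 and 3 was 12.2 times at the median of the first class and 3.36 times at that of the second. All 9 genes for which that library was not the highest of the detrusor libraries belonged to the second class. Of 94 genes above 25 on the scale there, 93 were of the first class, and of 25 genes below 10, 23 were of the second. Counts on the first class were 6.50 times those on the second in this library, whereas the ratio ran from 1.21 to 5.89 across the 9 mucosa libraries. In SCI-inosine detrusor the first class stood at 2.39, 9.55 and 5.42 and the second at 0.705, 3.76 and 3.05. The first class was thus the higher in every detrusor library from injured rats. Against Control, the detrusor log2 differences had medians of 3.04 and 1.08 for the first and second class in SCI-vehicle and of 2.07 and 0.95 in SCI-inosine. The first class started from a lower control detrusor level, with a median of 2.17 CPM against 4.16 CPM in the second. Control libraries also chose the genes, so these differences are partly set by the choice. The 111 genes higher in SCI-vehicle at an unadjusted p under 0.05 were 98 of the first class and 13 of the second. SCI-inosine differed from SCI-vehicle in detrusor by medians of -0.92 and -0.21, which turned to 1.08 and 0.64 without SCI-vehicle replicate 1.

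Other gene lists moved with the mucosa libraries that divided the classes. The 30 detrusor-enriched genes, on a scale with 0 at the control mucosa mean, had medians of 7.53, -4.14 and -3.19 in Control, 8.39, 2.34 and -1.85 in SCI-vehicle and 12.8, -1.28 and 1.87 in SCI-inosine, highest in replicate 1 of each group. The 368 genes of intermediate enrichment stood at 91.7, 103 and 101 in Control, at 88.1, 87.6 and 113 in SCI-vehicle and at 75.8, 96.5 and 96.3 in SCI-inosine, and in each group were lowest in the library where the second class was lowest. Control libraries chose these lists too, so their shifts from Control are partly set by the choice. The part of these lists in the division was not tested.

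Mucosa of SCI-vehicle was higher than mucosa of Control by 0.41 on the log2 scale at the median gene, with 98 of the 140 estimates positive and an all-gene median of -0.0038. The first class had a median of 0.57 and 94 of 104 positive estimates, and the second had -0.37 and 32 of 36 negative estimates. Control libraries chose the genes and formed the classes, so these medians are descriptions. With edgeR, 0 of the 140 genes had an adjusted p under 0.05, as did 0% of all genes, with a smallest adjusted p of 0.199, and DESeq2 called 3 of the 140, against 0.68% of the genes it tested. Unadjusted, 38 genes were higher and 8 lower at a p under 0.05, against 4.69% and 5.55% of all genes. Of the 38, 37 belonged to the first class, and of the 8, 6 belonged to the second. The higher count was 73 without Control replicate 1, against 6.4% of all genes, and 10 without Control replicate 2, against 2.35% of all genes. Of the other libraries, Control replicate 3, when left out, gave 24, SCI-vehicle replicate 1 gave 22 and its replicate 2 gave 13, against 3.92%, 3.27% and 2.61% of all genes.

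At the median gene, mucosa of SCI-inosine stood closer to Control than mucosa of SCI-vehicle did. The median log2 difference was 0.12, with 88 positive and 52 negative estimates, 0.22 in the first class and -0.16 in the second, and leaving out single libraries moved it between -0.09 and 0.35. In the edgeR fit, none of the 140 genes and 0% of all genes had an adjusted p under 0.05, and DESeq2 called 1, against 0.0826% of the genes it tested. At an unadjusted p under 0.05, 5 genes were higher and 7 lower, against 2.36% and 2.64% of all genes. The higher count was 17 when Control replicate 1 was left out, against 4.19% of all genes, and 10 when SCI-inosine replicate 2 was, against 2.95%. Leaving out Control replicate 2 gave 2, against 2.03% of all genes, and leaving out SCI-inosine replicate 1 gave 3, against 2.59%. Both comparisons share the 3 Control libraries. In SCI-inosine replicate 1 both classes lay outside the control range, the first at 159 and the second at 50.8 on the scale between the tissues. Replicates 2 and 3 lay within that range.

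Between the injured groups, whose libraries neither chose the genes nor formed the classes, mucosa of SCI-inosine was lower than mucosa of SCI-vehicle at the median gene, with a log2 difference of -0.28 and 106 of the 140 estimates negative. The first class had a median of -0.36 with 95 of 104 negative, and the second had 0.20 with 25 of 36 positive. None of the 140 genes had an adjusted p under 0.05 with edgeR, where 0.00635% of all genes had, and DESeq2 called 0. Control libraries entered these tests only through the shared scaling and spread. At an unadjusted p under 0.05, 3 were higher and 8 were lower, against 3.62% and 1.91% of all genes, and all 8 belonged to the first class. The first class stood at 159 in SCI-inosine replicate 1, near SCI-vehicle replicate 1 at 159.8, and the second class at 50.8, the lowest of the 9 mucosa libraries. Without SCI-inosine replicate 1, 59 genes were lower at an unadjusted p under 0.05, against 5.65% of all genes, all of the first class, and the class medians were -0.66 and 0.42. The lower count was 17 without SCI-vehicle replicate 3, against 3.56% of all genes. It was 2 without SCI-inosine replicate 3, and 3 with replicate 2 of SCI-vehicle or of SCI-inosine left out, against 1.07%, 1.09% and 1.26% of all genes.

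Shown in full are 4 genes, 2 higher and 2 lower than Control in mucosa. Each had no overlap with Control in mucosa of SCI-vehicle or of SCI-inosine. They were picked after their values were seen from the genes named by rule, and none passed the adjusted threshold with edgeR in these comparisons. ENSRNOG00000008356 had 77.6, 49.2 and 69.3 CPM in control mucosa, 174, 185 and 144 CPM in SCI-vehicle mucosa and 138.6, 85.4 and 85.8 CPM in SCI-inosine mucosa. The 3 groups ran in the order Control, SCI-inosine and SCI-vehicle with no overlap. The log2 difference of SCI-vehicle from Control was 1.30 (SE 0.22, adjusted p = 0.199 by edgeR and 0.000206 by DESeq2, with 0.000206 to 0.606 over 14 alternatives). Of the 14, only DESeq2 gave an adjusted p under 0.05. In control detrusor this gene had 0.931, 1.62 and 0.731 CPM, against 39.5, 3.00 and 1.37 CPM in SCI-vehicle and 2.35, 15.4 and 5.28 CPM in SCI-inosine.

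ENSRNOG00000006330 was highest in SCI-inosine mucosa, at 403, 225 and 218 CPM, against 202, 216 and 206 CPM in SCI-vehicle and 128, 98.2 and 105 CPM in Control. The log2 difference from Control was 1.36 in SCI-inosine (SE 0.23, adjusted p = 0.506 by edgeR and 0.000276 by DESeq2, with 0.000276 to 1.00 over 14 alternatives) and 0.85 in SCI-vehicle (SE 0.23, adjusted p = 0.326 by edgeR). Of the 14 alternatives for SCI-inosine, only DESeq2 gave an adjusted p under 0.05. Without SCI-inosine replicate 1, which alone reached 403 CPM, the difference in SCI-inosine was 1.01. Its control detrusor levels were 0.186, 1.46 and 3.17 CPM, against 62.9, 3.95 and 3.19 CPM in SCI-vehicle and 4.99, 36.2 and 11.1 CPM in SCI-inosine, in the order of libraries seen for most of the 140 genes.

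ENSRNOG00000050420 was lower in mucosa of SCI-vehicle than of Control, at 62.5, 31.8 and 84.5 CPM in SCI-vehicle and 178, 81.7 and 57.1 CPM in SCI-inosine, against 284, 139 and 350.3 CPM in Control. SCI-vehicle did not overlap with Control, whereas SCI-inosine replicate 1 lay within the control range. The log2 difference of SCI-vehicle from Control was -2.17 (SE 0.49, adjusted p = 0.289 by edgeR and 0.00278 by DESeq2, with 0.00278 to 0.806 over 14 alternatives). Only DESeq2 of the 14 gave an adjusted p under 0.05. This gene belongs to the first class, which on the whole was higher in SCI-vehicle mucosa.

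ENSRNOG00000012906 was lowest in SCI-inosine mucosa, at 40.8, 40.9 and 33.8 CPM, against 43.6, 60.3 and 73.4 CPM in SCI-vehicle and 111, 52.7 and 76.4 CPM in Control. All SCI-inosine libraries lay below all others, with SCI-vehicle replicate 1 close above them. The log2 difference of SCI-inosine from Control was -1.05 (SE 0.27, adjusted p = 0.829 by edgeR and 0.224 by DESeq2, with 0.224 to 1.00 over 14 alternatives).

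**Figure D4:**
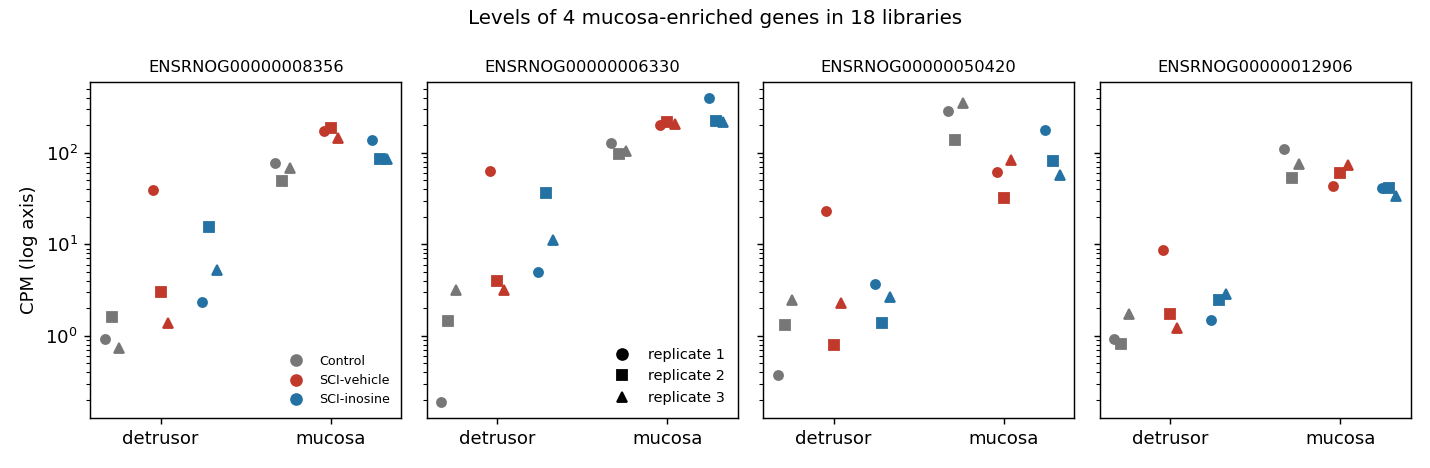
CPM (log axis) of 4 of the 140 genes in the 18 libraries, by tissue, group (color) and replicate (symbol). In detrusor SCI-vehicle replicate 1 is the highest library for each of the 4 genes, and in mucosa ENSRNOG00000008356 is higher in SCI-vehicle (144 to 185 CPM) than in Control (49.2 to 77.6 CPM).

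The tissue difference that chose the genes was then measured in the 12 libraries from injured rats, which the choice did not use. In a fit of all 18 libraries with edgeR, 139 of the 140 genes were higher in mucosa than in detrusor of SCI-vehicle with an adjusted p under 0.05, where 25.4% of all genes were, and DESeq2 called 134, against 25.3% of the genes it tested. For SCI-inosine all 140 were, where 22.8% of all genes were, and DESeq2 called 135, against 23.8% of the genes it tested. The log2 difference at the median gene was 2.96 in SCI-vehicle and 3.58 in SCI-inosine, and without detrusor SCI-vehicle replicate 1 the SCI-vehicle value was 4.83. Every mucosa library was above every detrusor library of its group for 139 genes in SCI-vehicle and for 140 in SCI-inosine. The gene that missed the threshold in SCI-vehicle had 109, 238 and 38.3 CPM in mucosa and 63.1, 4.74 and 1.06 CPM in detrusor (log2 difference 2.08, SE 0.97, adjusted p = 0.087), and its log2 difference was 4.89 (adjusted p = 0.00143) without detrusor replicate 1.

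With all libraries used, the size of the difference was smaller than in Control for nearly all genes. The ratio of mean CPM had a median of 9.93 in SCI-vehicle, with a range from 3.49 to 30.3, and 14.5 in SCI-inosine, with a range from 4.84 to 77.0. It was below the Control ratio for 140 genes in SCI-vehicle and 139 in SCI-inosine. Without detrusor SCI-vehicle replicate 1 it was below for 94 genes in SCI-vehicle. Since the genes were chosen for a high ratio in Control, a lower ratio elsewhere is partly set by the choice. In SCI-vehicle the ratio exceeded 16 for 9 genes, all of the second class, and in SCI-inosine for 58 genes. Without detrusor SCI-vehicle replicate 1, the SCI-vehicle ratio had a median of 37.1 and exceeded 16 for 123 genes, 99 of 104 of the first class and 24 of 36 of the second, against a median of 44.1 in Control. In SCI-inosine the median gene had 4.99, 13.0 and 8.02 CPM in the detrusor libraries, against 1.49, 1.95 and 3.41 CPM in control detrusor, so all 3 libraries lay above the controls.

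**Figure D5:**
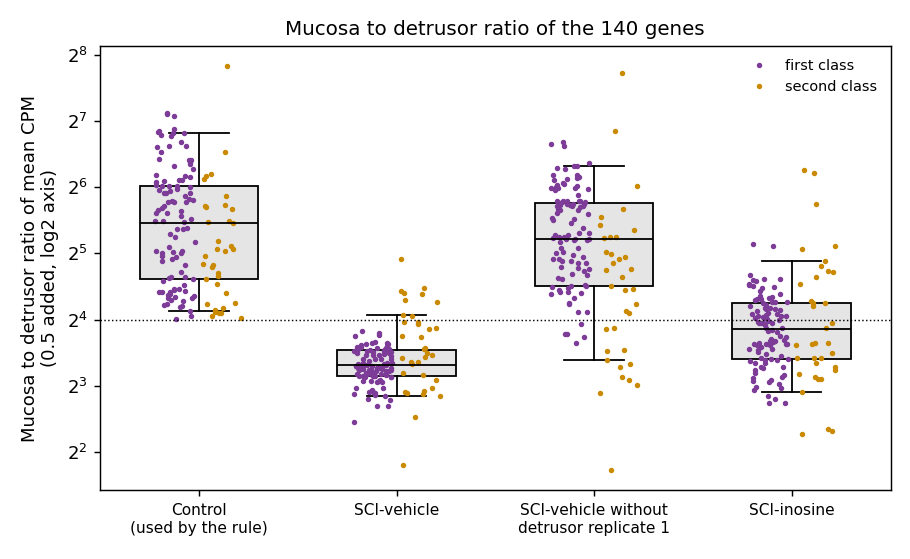
Ratio of mean mucosa to mean detrusor CPM (0.5 added to both means, log2 axis) of the 140 genes in Control, SCI-vehicle, SCI-vehicle without detrusor replicate 1, and SCI-inosine. Boxes give the median and quartiles, whiskers the 5th and 95th percentiles, points single genes by class, and the dotted line the ratio of 16 used to choose the genes in Control, and the median goes from 9.93 to 37.1 in SCI-vehicle when 1 library is left out.

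The genes that kept the largest tissue difference over all 12 injured libraries had ratios of 44.7, 32.5, 31.5, 24.8 and 23.8, and all 5 belonged to the second class. Without detrusor SCI-vehicle replicate 1 the largest ratios were 95.4, 90.1, 54.6, 36.9 and 36.8, and 3 of these 5 genes were of the second class. The smallest ratios over all 12 libraries were 4.27, 5.79, 6.10, 6.82 and 6.91, and 3 of these 5 genes were of the second class. Between the quartiles, the SCI-vehicle ratio ran from 8.84 to 11.3 in the first class and from 8.84 to 15.9 in the second. Without detrusor replicate 1 the first class ran from 27.3 to 55.5 and the second from 11.6 to 37.6, so the second class had the higher upper quartile with that library and the lower one without it.

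Whether inosine acted differently on the genes in the tissues was tested as an interaction over the 4 injured groups. The signed log2 difference of SCI-inosine from SCI-vehicle was higher in mucosa than in detrusor by 0.49 at the median gene, with 120 estimates positive. Its median was -0.28 in mucosa and -0.85 in detrusor, so the lowering at the median gene was smaller in mucosa. For the difference between the tissues, 0 of the 140 genes had an adjusted p under 0.05 with edgeR, as did 0% of all genes and 0 of the 140 by DESeq2. At an unadjusted p under 0.05, 2 were positive and 0 negative, where 1.99% of all genes were positive. Without detrusor SCI-vehicle replicate 1 the median was -1.30, and 67 genes were negative at an unadjusted p under 0.05, against 3.95% of all genes. The positive count was 11 and 12 with detrusor SCI-vehicle replicate 2 or 3 left out, against 1.75% and 1.96% of all genes, and 6 without mucosa SCI-inosine replicate 1, against 2.67%. The direction of this difference, like that of inosine in detrusor, rested on that library.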

How the data were processed

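Total RNA of 18 rat bladder samples was depleted of ribosomal RNA and sequenced as paired-end reads by the authors, who added the counts of 2 runs per sample. The deposited values are whole-number counts per gene without normalization, for 32754 genes, with 0 unused columns. The submitters' processing notes name Trim Galore 0.6.10, STAR 2.7.10a, featureCounts 2.0.3 and the build Rnor_6.0, and strand use in counting is not given in the sources used here.

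CPM was the count divided by the library total. Tests covered the 15740 genes over 1 CPM in 3 or more of the 18 libraries, all 140 members among them, with the two-sided quasi-likelihood F test of edgeR 4.0.16 (TMM scaling, R 4.3.3), on the 9 libraries of a tissue or on all 18 for tissue differences and the interaction, at a Benjamini-Hochberg adjusted p under 0.05. The biological coefficient of variation was 26.5% in detrusor, 20.0% in mucosa and 23.1% over both. The scripts were tested on simulated data. The genes, lists, tests and classes were chosen with earlier results of these data known. Samples were grouped by their titles.

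The named genes were to come from the most abundant members, those with the largest differences without overlap between groups, and those at the thresholds or extremes of the tissue ratio. As identifiers are not paired with names, at most 2 higher and 2 lower ones are printed, and the role and cell type lists were not run. Alternatives were DESeq2 1.42.0, its size factors, other filters, the replicate block, a covariate, other thresholds of the choice and leaving out each library.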

Additional observations from a re-analysis of the deposited data

Results flagged for a closer look

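In SCI-vehicle, the second class of genes stood on opposite sides of the Control mean in the tissues. All 3 detrusor libraries were above the mean of the control detrusor libraries on the scale between the tissues, by 3.52 on average, and all 3 mucosa libraries were below the mean of the control mucosa libraries, by -21.4 on average. Control libraries chose the genes for low detrusor and high mucosa levels, so both directions are partly set by the choice. The difference between the tissues was not tested. The detrusor average rested on replicate 1, which stood at 9.11, against 0.310 and 0.854 in replicates 2 and 3. Detrusor replicate 2 lay within the control detrusor range of -0.671 to 0.314, and replicate 3 lay little above it. Mucosa replicate 3, at 96.3, lay within the control range of 70.4 to 122.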

How the results depend on the processing

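The counts of genes past the adjusted threshold by edgeR were 0 in every comparison within a tissue, and larger under some alternatives. In detrusor, SCI-vehicle against Control gave 36 with DESeq2 (2.54% of the genes it tested), 30 without a filter on low counts (0.807% of all genes) and 1 of 262 genes with a ratio above 8, and SCI-inosine against Control gave 2 (2.63%), 2 (0.802%) and 2 of 262, and 0 to 5 when single libraries were left out. In mucosa, DESeq2 gave 3 for SCI-vehicle and 1 for SCI-inosine against Control. The median log2 difference of SCI-vehicle from Control in detrusor was 0.42 with the mucosa share as a covariate and 0.78 to 2.74 when single libraries were left out. That of SCI-inosine from Control was 0.14 with the covariate, 1.05 for a ratio above 8 and 2.37 for a ratio above 32. That of SCI-inosine from SCI-vehicle in detrusor ranged from -1.29 to 0.96 when single libraries were left out, and turned positive only without SCI-vehicle replicate 1. In mucosa the same ranges were 0.21 to 0.69 for SCI-vehicle against Control and -0.55 to -0.14 for SCI-inosine against SCI-vehicle. Of 288 recomputed values of these counts and medians, 270 moved by less than the limit set for each. The limit did not check the sign of a median, and counts that stayed at 0 are among the 270. In the tissue difference, 135 to 139 genes in SCI-vehicle and 138 to 140 in SCI-inosine passed when single libraries were left out.

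Replicate numbers are shared by the groups, and the main fits did not use them to pair the samples. Deviations of same-numbered libraries correlated between -0.22 and 0.39 within a tissue, over 0.1 in 6 of 18 pairs. Between the tissues of a group they correlated between -0.02 and 0.20, over 0.1 in 5 of 9 pairs, and 7 of 9 detrusor libraries correlated best with the mucosa library of their number, which is a hint from the data and not from the design. A fit with the replicate number as a block joined libraries of the same number across groups. It did not model a detrusor and mucosa pair from the same bladder. With this block, 0 genes passed in each comparison within a tissue, 140 in the tissue difference of either injured group and 0 in the interaction. The median log2 difference of SCI-inosine from SCI-vehicle in detrusor was then -0.33. Precision was lower in detrusor, with a median standard error of 0.91 for SCI-inosine against Control, against 0.29 in mucosa, and 0.54 without SCI-vehicle replicate 1. The causes of these shifts were not tested.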
